A study of Mus musculus with 22 samples.

Results

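Glul, Oat, Slc1a2, Rhbg, Slc1a4 and Glud1 code for enzymes and transporters that handle glutamine, glutamate and ammonia in the liver. These 6 genes, of 28034 gene names on the array, were taken because their symbols were listed together as pericentral glutamine and ammonia genes, and every non-control probe carrying 1 of those symbols was kept. This gave 13 probes of 41174, namely 3 for Glul, 5 for Slc1a2, 2 for Slc1a4 and 1 each for Oat, Rhbg and Glud1.

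Ammonia that reaches the liver in portal blood is first turned into urea by hepatocytes near the portal vein. What escapes is captured by a thin layer of hepatocytes around the central vein, which hold glutamine synthetase, the product of Glul. Wnt and beta-catenin signalling, in which the transcription factor Tcf7l2 takes part, is known for keeping this pericentral gene programme.

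Liver RNA of mice of strain C57BL/6 was measured in 6 groups on 2-colour arrays, with 1 array per sample and samples of a group labelled as biological replicates. The newborn groups were 4 Tcf7l2+/+ and 4 Tcf7l2-/- pups, which were given 50 ul of 10% glucose under the skin and were sampled at 5 h. Adult controls were Tcf7l2loxp/loxp mice and adult knockouts were Tcf7l2loxp/loxp;SA-CreERT2 mice. Both adult genotypes received tamoxifen at 3 weeks of age and were sampled 1 to 2 months later, after a 24 h fast (4 controls, 4 knockouts) or fed (3 controls, 3 knockouts). CreERT2 is a Cre recombinase that tamoxifen activates. The labels do not spell out SA, which for this kind of line denotes the serum albumin gene, active in hepatocytes, and they name no Cre in the controls. Newborns and adults therefore differ in age, in the kind of deletion and in treatment at once.

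A value is the log2 ratio of a liver to a common mouse reference RNA at 1 probe, so 1 unit is a doubling. A change is called where the adjusted p of limma, over all probes tested, is below 0.05. Between 50.2% and 64.4% of liver spots were well above background on newborn arrays, 50.2% to 62.0% on fasted arrays and 22.8% to 31.2% on fed arrays. Low signals were thus measured least well in fed livers. Hepatocyte markers matched the labelled tissue, since 7 of 7 with a probe were well above background on every array. The summed signal of pancreas and fat markers was 16.24 (log2) in fasted knockout 2 and 15.13 in fasted knockout 3, against 10.02 to 12.34 in the other 20 arrays. Tcf7l2 itself did not settle the labels, as none of its 3 probes was called in a knockout by the ratio. Probe A_52_P566741, shown because it moved most, averaged -0.78 ± 0.40 (SD, n = 4) in newborn wild types and -1.66 ± 0.13 (SD, n = 4) in newborn knockouts. These groups did not overlap, and the change was -0.87 ± 0.19 (SE, adjusted p = 0.0612). In the liver channel alone, without the reference, this probe was called lower in newborn knockouts (-0.82, adjusted p = 0.0307). A_52_P146043 changed by 0.08 (adjusted p = 0.861) and the remaining probe was not tested in newborns. In adults A_52_P566741 changed by 0.35 in fasted and 0.21 in fed knockouts (adjusted p = 0.52 and 1), so knockout directions rest on the labels. Which part of Tcf7l2 was deleted is not given in the sources used here, and the probes may lie outside it.

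The sequences just upstream of the genes that fell in adult knockouts are shown to let their start regions be compared. They come from RefSeq on GRCm38.p6, which held 5 of the 6 genes, and each is the 250 bases before the annotated start, 5′ to 3′ on the gene's strand. Capitals mark TCAAAG, the core of the site that TCF and LEF factors bind, or its reverse complement CTTTGA.
Glul chr1:153899679-153899928: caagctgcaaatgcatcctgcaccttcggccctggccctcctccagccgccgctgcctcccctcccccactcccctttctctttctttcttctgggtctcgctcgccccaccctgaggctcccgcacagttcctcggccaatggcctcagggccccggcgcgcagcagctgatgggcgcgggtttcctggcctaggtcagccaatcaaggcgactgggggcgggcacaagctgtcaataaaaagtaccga
Oat chr7:132576399-132576648: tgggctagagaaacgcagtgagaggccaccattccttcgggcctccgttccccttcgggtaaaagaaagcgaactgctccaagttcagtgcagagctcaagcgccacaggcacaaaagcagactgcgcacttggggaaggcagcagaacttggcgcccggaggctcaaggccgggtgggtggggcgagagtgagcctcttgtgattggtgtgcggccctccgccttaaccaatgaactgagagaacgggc
Slc1a2 chr2:102706188-102706437: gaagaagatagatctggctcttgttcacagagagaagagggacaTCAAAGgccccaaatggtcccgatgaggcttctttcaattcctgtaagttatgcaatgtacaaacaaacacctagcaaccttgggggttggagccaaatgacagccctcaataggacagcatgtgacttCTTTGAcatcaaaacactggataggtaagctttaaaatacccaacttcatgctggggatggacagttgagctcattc
Slc1a2 was the only 1 of the 5 genes with a match, at 206 and 77 bases before the start, on opposite strands. Of 32851 promoter windows of 250 bases in the same table, 13.8% held a match on either strand. The motif is short, a match is no evidence of binding, and its lack in the Glul and Oat windows says nothing about sites elsewhere. Rhbg was not among the entries.

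At birth only Rhbg fell, while in adults Glul, Oat and Slc1a2 fell in both feeding states. Of the 9 probes that could be tested in newborns, 1 was called lower and 0 higher, where 1.15% of all 24411 probes were called, 0.283% lower and 0.864% higher. Of the 12 probes tested in adults, 9 probes of 4 genes were called lower in fasted knockouts, against 0.434% of 25135 probes called and 0.334% called lower. In fed knockouts 7 probes of 3 genes were called lower, against 0.215% called, 0.187% lower and 0.0278% higher. No probe of the 6 genes was called higher in a knockout by the ratio. The median knockout change over the tested probes was -0.15 in newborns, -2.87 in fasted and -2.34 in fed adults, where the median over all probes was -0.03, 0 and 0.03.

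The size of the knockout change was then compared between birth and the adult as the newborn change minus the mean of the fasted and fed changes. In this test 8 of 12 probes were called higher, meaning a more negative change in adults, against 1.28% of 26899 probes called, 0.903% higher and 0.372% lower. They were all 3 Glul probes, the Oat probe and 4 Slc1a2 probes. The Slc1a2 probes entered through the adults or, at A_52_P178651, through the newborn knockouts. With newborn wild types near background, the direction at Slc1a2 was fixed by the adult fall, so the comparison bears on Glul and Oat. Newborn wild types overlapped both adult control groups at Glul A_52_P101279 and A_52_P143866. At Glul A_51_P441798 they averaged 0.89 against 2.17 in fasted controls. At Oat they averaged -0.12 against 2.71 in fasted and 2.44 in fed controls. Less could be lost from the lower level at A_51_P441798, so starting level and knockout response cannot be told apart there. At Oat a fall was measurable at birth. Its probe was well above background on all 22 arrays, also in adult knockouts, which averaged -1.15 when fasted and -1.45 when fed. The part of the starting level in the Oat difference was not tested. Rhbg, both Slc1a4 probes and Glud1 did not pass.

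**Figure D1:**
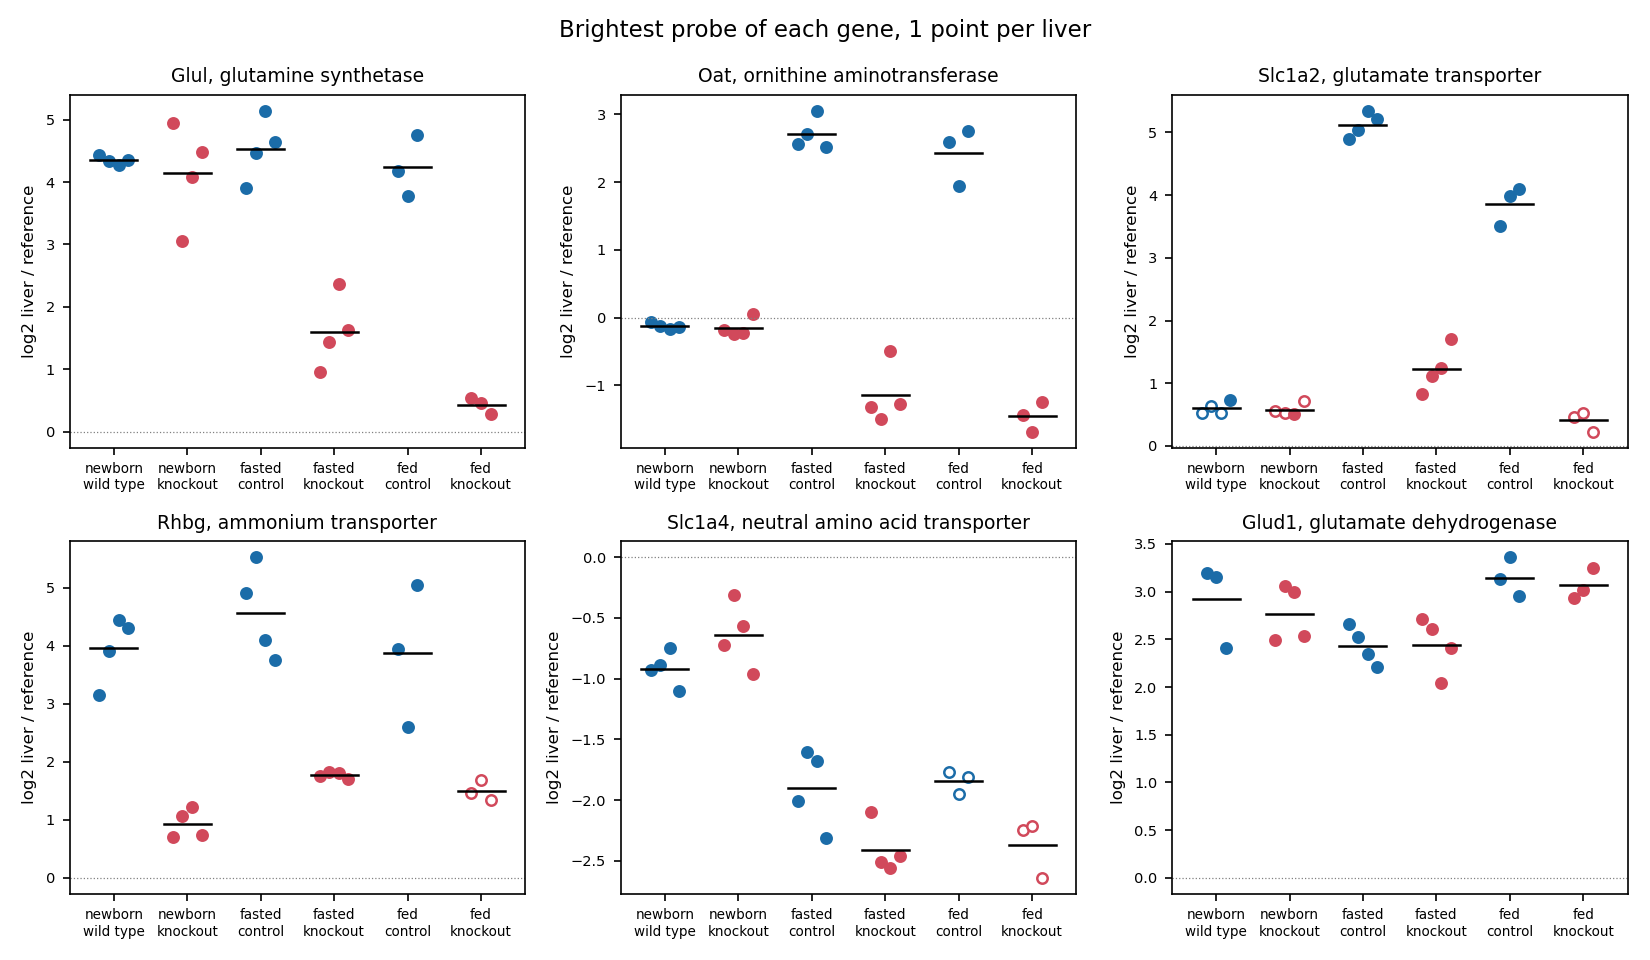
Log2 liver over reference (vertical axis, scale differs by panel) at the brightest probe of each gene, with 1 point per liver, a bar at each group mean, blue for wild types or controls and red for knockouts. Filled points are well above background and open points are not; the Rhbg groups do not overlap in any of the 3 settings, although the fed change did not pass (adjusted p = 0.121), and the Glul, Oat and Slc1a2 genotypes overlap in newborns but not in adults.

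Glul makes glutamine from glutamate and ammonia. Its 3 probes lie on chr1 of build mm9, A_52_P143866 at chr1:155751765-155751824, A_51_P441798 at chr1:155755785-155755844 and A_52_P101279, the brightest, at chr1:155756750-155756809. At the brightest probe the newborn wild types measured 4.43, 4.34, 4.27 and 4.36, and the newborn knockouts 4.94, 3.05, 4.09 and 4.49. Newborn knockout 2 lay lowest of the 8 and newborn knockout 1 highest, so the groups overlapped. The newborn change was -0.21 ± 0.33 (SE, adjusted p = 0.872), with a 95% interval from -0.96 to 0.54. Without newborn knockout 2 it was 0.16 (adjusted p = 0.771).

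Fasted controls measured 3.90, 4.47, 5.14 and 4.64 at this Glul probe and fasted knockouts 0.96, 1.44, 2.36 and 1.63. Every fasted knockout lay below every fasted control. The change was -2.94 ± 0.31 (SE, adjusted p = 2.98e-04), a 7.68-fold fall, and within slides 3 and 4 it was -2.98 and -2.90. The fed livers did not overlap either, with 4.18, 3.77 and 4.76 in controls and 0.53, 0.45 and 0.28 in knockouts. That change was -3.82 ± 0.35 (SE, adjusted p = 1.77e-04), a 14.1-fold fall, and within slides 5 and 6 it was -3.69 and -3.99. The newborn change exceeded the mean adult change by 3.17 ± 0.42 (SE, adjusted p = 1.84e-04). At this probe newborn wild types overlapped both adult control groups. The order of group means ran from fasted controls through newborn wild types, fed controls and newborn knockouts, whose neighbours overlapped, down to fasted and then fed knockouts, which did not.

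The remaining Glul probes gave smaller changes in the same direction, but the level at birth depended on the probe. At A_51_P441798 the newborn wild types, at 0.62 to 1.00, lay below the fasted controls, at 1.29 to 2.79, and the fed controls, at 1.88 to 2.87. A_52_P143866 averaged 4.11 in newborn wild types and 3.92 in newborn knockouts, and A_51_P441798 0.89 and 0.70, with adjusted p of 0.784 and 0.657. In fasted knockouts they fell by 2.31 and 1.84 on the log2 scale (adjusted p = 6.6e-04 and 0.00842). Neither was well above background in any fed knockout, so the fed fall was at least 7.27-fold at A_52_P143866 (adjusted p = 1.77e-04). At A_51_P441798 the bound was 2.27-fold (adjusted p = 0.00734), but only 1 of 3 fed controls was well above background there. That limit also holds for the fed control level of A_51_P441798 given above. Such a bound is taken in the liver channel, where it sets the control mean against the higher of the dimmest detected signal and the probe's own signal in the knockouts, and with no dye swap it is open to dye bias. Their newborn and adult changes differed by 2.61 and 1.88 (adjusted p = 7.29e-05 and 0.00195).

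Oat moves an amino group from ornithine to 2-oxoglutarate and so feeds glutamate and, through it, glutamine synthesis. Its probe, A_51_P141535 at chr7:139749726-139749785, was well above background on all 22 arrays. Newborn wild types measured -0.06, -0.12, -0.16 and -0.13 and newborn knockouts -0.18, -0.24, -0.23 and 0.06. The newborn groups overlapped in a narrow band, and the change was -0.03 ± 0.10 (SE, adjusted p = 0.949; 95% interval -0.26 to 0.20).

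Adult controls held far more Oat relative to the reference. The fasted controls measured 2.56, 2.71, 3.05 and 2.52 and the fasted knockouts -1.32, -1.50, -0.49 and -1.28. The fed knockouts measured -1.43, -1.68 and -1.25 where the fed controls measured 2.60, 1.94 and 2.76. All adult knockouts lay below all newborns and all adult controls above them. Oat fell 14.5-fold in fasted knockouts (-3.86 ± 0.23, SE, adjusted p = 7.43e-07) and 14.8-fold in fed knockouts (-3.89 ± 0.26, SE, adjusted p = 1.10e-05). Within slides 3, 4, 5 and 6 the change was -4.05, -3.67, -4.16 and -3.60. The newborn and adult changes differed by 3.84 ± 0.24 (SE, adjusted p = 9.67e-09), and only 2 of the 26899 probes had a larger positive difference.

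Glud1, mitochondrial glutamate dehydrogenase, releases ammonia from glutamate or fixes it. Its probe, A_51_P376258 at chr14:35157919-35157978, was also well above background on all 22 arrays, and the spot of newborn wild type 1 was left out as an outlier. The remaining newborn wild types measured 3.20, 3.15 and 2.41 and the newborn knockouts 2.49, 3.06, 3.00 and 2.53. Fasted controls measured 2.66, 2.52, 2.35 and 2.21 and fasted knockouts 2.71, 2.61, 2.04 and 2.41. Of the fed livers, controls measured 3.13, 3.36 and 2.95 and knockouts 2.93, 3.02 and 3.25. Genotypes overlapped in all 3 settings. The changes were -0.15 in newborns, 0.01 in fasted and -0.08 in fed adults (adjusted p = 0.869, 0.994 and 1), with 95% intervals of -0.69 to 0.38, -0.33 to 0.35 and -0.47 to 0.32.

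Slc1a2, a high-affinity glutamate transporter that pericentral hepatocytes share with astrocytes, had 5 probes over 46402 bases of chr2. A_52_P311194, at chr2:102584501-102584560, lies on the minus strand, opposite to the others, was well above background on 0 of 22 arrays and was not tested. The other 4, on the plus strand, are A_52_P168496 at chr2:102617706-102617765, A_51_P477875 at chr2:102617801-102617860, A_52_P178651 at chr2:102622068-102622127 and A_51_P179878 at chr2:102630843-102630902. In newborns Slc1a2 was near background. The brightest probe, A_52_P168496, was well above it on 1 of 4 wild types and 1 of 4 knockouts, with 0.52, 0.64, 0.53 and 0.74 in wild types and 0.55, 0.53, 0.51 and 0.72 in knockouts. Only A_52_P178651 was detected on enough newborn arrays to be tested, by virtue of the 4 knockouts. Its knockout values of 0.34, 0.31, 0.36 and 0.50 lay above the wild-type values of -0.01, 0.02, 0.17 and 0.05, and the change of 0.32 ± 0.10 (SE) had an adjusted p of 0.172. In the liver channel alone it was called higher (0.51, adjusted p = 0.0288), while the reference channel, which held the same RNA on every array, differed by 0.69 (adjusted p = 0.00178). No fall of Slc1a2 was detectable at these newborn signals.

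In fasted controls the 4 plus-strand Slc1a2 probes were well above background on every array, and all 4 fell in fasted knockouts. At A_52_P168496 the fasted controls measured 4.89, 5.03, 5.34 and 5.21 and the fasted knockouts 0.83, 1.11, 1.24 and 1.70. The fed knockouts measured 0.46, 0.53 and 0.23 where the fed controls measured 3.50, 3.98 and 4.09. No adult knockout reached any adult control. The fasted change was -3.90 ± 0.18 (SE, adjusted p = 1e-07), a 14.9-fold fall. The fed knockouts were not well above background, so the fed fall was at least 6.31-fold (adjusted p = 4.8e-06). The reference channel at this spot was also lower in fasted knockouts, with a change of -2.09 on the log2 scale (adjusted p = 7.05e-05), although every array received the same reference RNA. Its part in the ratio was not tested. The size of the fasted change depended on the processing, at -4.51 in the liver channel alone (adjusted p = 3.39e-08), -1.90 from the processed signals (adjusted p = 5.96e-04) and -2.31 with outlier backgrounds kept, where it was not called (adjusted p = 0.087).

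The farthest downstream probe of Slc1a2, A_51_P179878, gave the largest fall of all 25135 probes in fasted knockouts. Fasted controls measured 6.97, 6.94, 7.67 and 7.30 and fasted knockouts 0.68, 0.89, 1.04 and 1.34, a 75.1-fold difference (-6.23 ± 0.24, SE, adjusted p = 2.89e-08). Within slides 3 and 4 the change was -6.17 and -6.29. In the liver channel alone it was -4.21 (adjusted p = 2.34e-07), and with outlier backgrounds kept it was -3.16 and not called (adjusted p = 0.12). A_51_P477875 and A_52_P178651 changed by -4.61 and -3.18 (adjusted p = 3.02e-08 and 2.91e-06), and by -3.03 and -2 in the liver channel alone (adjusted p = 5.44e-07 and 5.77e-04). With outlier backgrounds kept they were -2.05 and -1.41 and not called (adjusted p = 0.173 and 0.195). The falls thus ran from -3.18 to -6.23 between probes of 1 gene, so each size belongs to its probe. Markers of astrocytes and neurons summed to 10.96 to 11.36 (log2 signal) in fasted controls and 10.59 to 11.04 in fasted knockouts. Of these 6 markers, 3 were detected on all arrays of both fasted groups, none of the 3 tested was called, and the part of such cells in the Slc1a2 result was not tested.

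**Figure D2:**
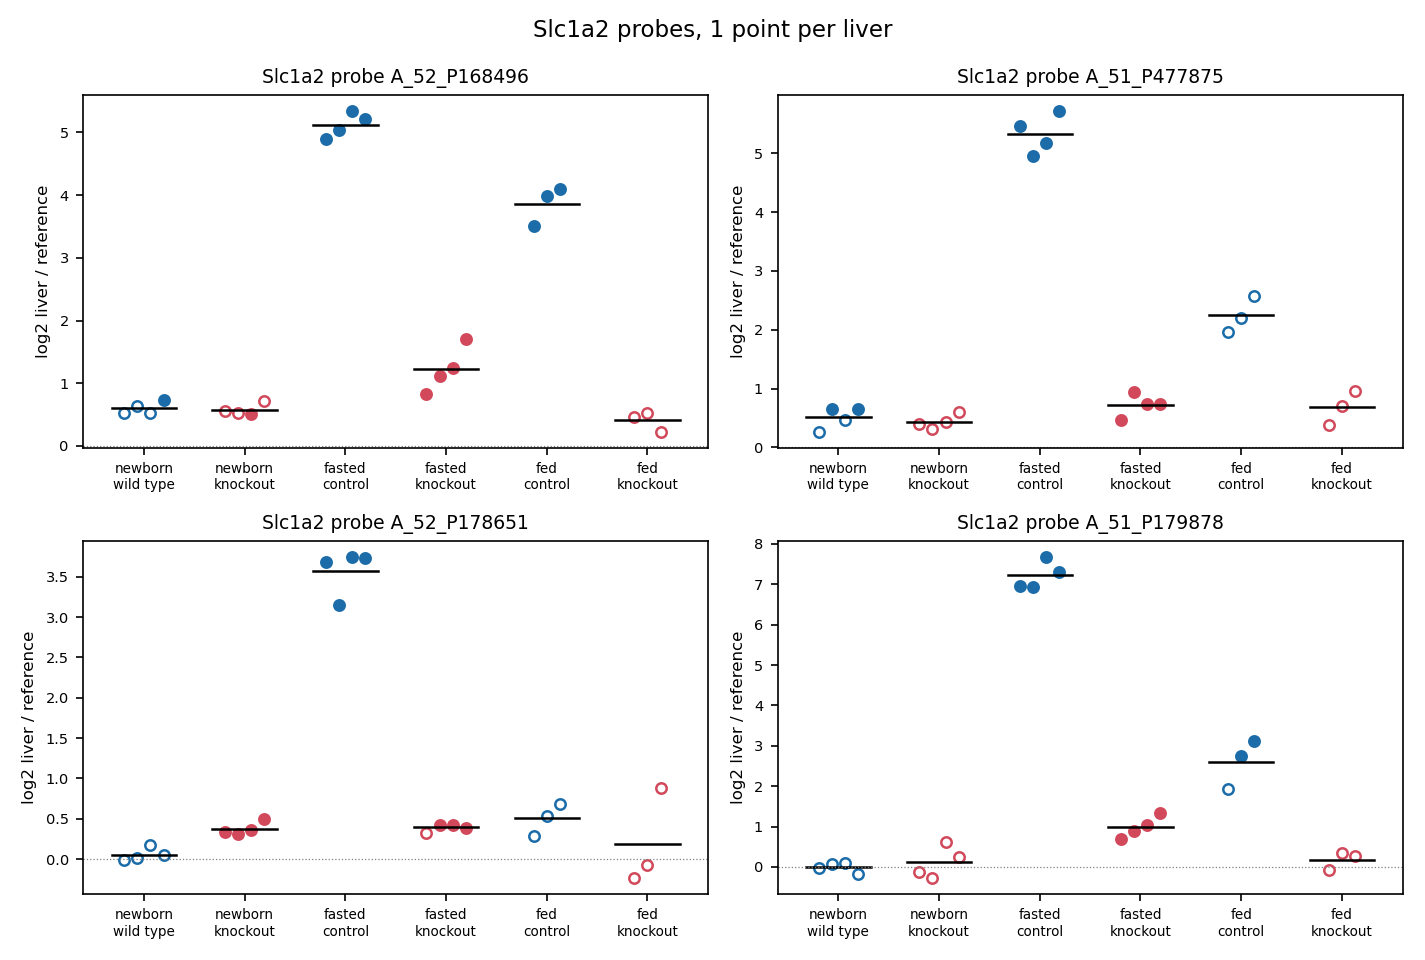
Log2 liver over reference (vertical axis, scale differs by panel) at the 4 plus-strand Slc1a2 probes, with 1 point per liver and a bar at each group mean; filled points are well above background. Fasted controls are the highest group at each probe, and fed controls reach 3.86 on average at A_52_P168496 but 0.51 at A_52_P178651, where no fed liver is above background.

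In fed adults the Slc1a2 probes parted from each other. A_51_P179878 measured 1.92, 2.74 and 3.12 in the controls against -0.08, 0.34 and 0.28 in the knockouts, a fall of at least 1.46-fold (adjusted p = 0.00156), and it was well above background on 2 of 3 control arrays. A_51_P477875 measured 1.96, 2.20 and 2.58 against 0.38, 0.71 and 0.96 (adjusted p = 0.00734), and A_52_P178651 0.29, 0.54 and 0.69 against -0.23, -0.07 and 0.88 (adjusted p = 0.98). Neither of these was well above background on any fed array, so no fold is given. Across birth and adult, the newborn change exceeded the adult mean by 3.65, 3.01, 2.06 and 4.46 at A_52_P168496, A_51_P477875, A_52_P178651 and A_51_P179878 (adjusted p = 1.19e-09, 3.47e-08, 1.78e-05 and 1.13e-08). Newborn wild types had little Slc1a2 signal to lose, so these differences follow from the starting level and say nothing of how newborns would respond.

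Rhbg, an ammonium transporter of the cell surface, was read by A_51_P400366 at chr3:88047265-88047324. Newborn wild types measured 3.16, 3.92, 4.45 and 4.31 and newborn knockouts 0.71, 1.06, 1.23 and 0.74. The groups were far apart, and the probe was well above background on all 8 arrays. Rhbg fell 8.16-fold (-3.03 ± 0.26, SE, adjusted p = 0.00225; 95% interval -3.62 to -2.44), which was the largest fall of the 24411 probes tested in newborns. In the liver channel alone the change was -2.61 (adjusted p = 0.0141).

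In adults the Rhbg fall passed the test in fasted knockouts and not in fed knockouts. Fasted controls measured 4.91, 5.53, 4.10 and 3.76 and fasted knockouts 1.75, 1.83, 1.80 and 1.71. When fed, controls measured 3.95, 2.60 and 5.06 and knockouts 1.47, 1.69 and 1.34. The adult groups did not overlap, and controls spread far more than knockouts. The fasted change was -2.80 ± 0.44 (SE, adjusted p = 0.00997), a 6.98-fold fall, and was -3.43 within slide 3 and -2.18 within slide 4. The fed change was -2.37 ± 0.51 (SE, adjusted p = 0.121) and did not pass, and no fed knockout was well above background. Without fed control 2, the lowest control, it was -3.01 (adjusted p = 0.0119). Of the 14 fits that left out 1 adult array, this was the only 1 with a call, and 13 had none. The newborn change minus the mean adult change was -0.44 ± 0.50 (SE, adjusted p = 0.852), with a 95% interval from -1.48 to 0.60, which allows a deeper fall at either age.

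The call for the fasted Rhbg fall was lost in the liver channel alone (-2.12, adjusted p = 0.161). It was also lost without fasted knockouts 2 and 3, the arrays with pancreas signal (-2.85, adjusted p = 0.116). The call for A_51_P441798 of Glul was lost likewise (-1.87, adjusted p = 0.1), while the other 7 fasted calls held.

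Slc1a4 exchanges neutral amino acids such as alanine, serine and cysteine. Its probes, A_52_P273098 at chr11:20202533-20202592 and A_51_P371311 at chr11:20203448-20203507, were well above background on every newborn array and on no fed array. At A_52_P273098 newborn wild types measured -0.93, -0.89, -0.75 and -1.10 and newborn knockouts -0.72, -0.31, -0.57 and -0.96. Fasted controls measured -2.01, -1.60, -1.68 and -2.31 and fasted knockouts -2.10, -2.51, -2.56 and -2.46. The changes of 0.28 in newborns and -0.51 in fasted adults did not pass (adjusted p = 0.5 and 0.274), and genotypes overlapped. Fed values of -1.77, -1.95 and -1.81 in controls and -2.25, -2.21 and -2.64 in knockouts did not overlap but lay below the detection limit (adjusted p = 0.56). The newborn minus adult difference was 0.79 ± 0.20 (SE, adjusted p = 0.0609). A_51_P371311 changed by 0.19, -0.09 and -0.22 in the 3 settings (adjusted p = 0.767, 0.965 and 1), and fasted knockout 1 measured -0.11 there where the other fasted knockouts measured -1.49 to -1.39.

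**Figure D3:**
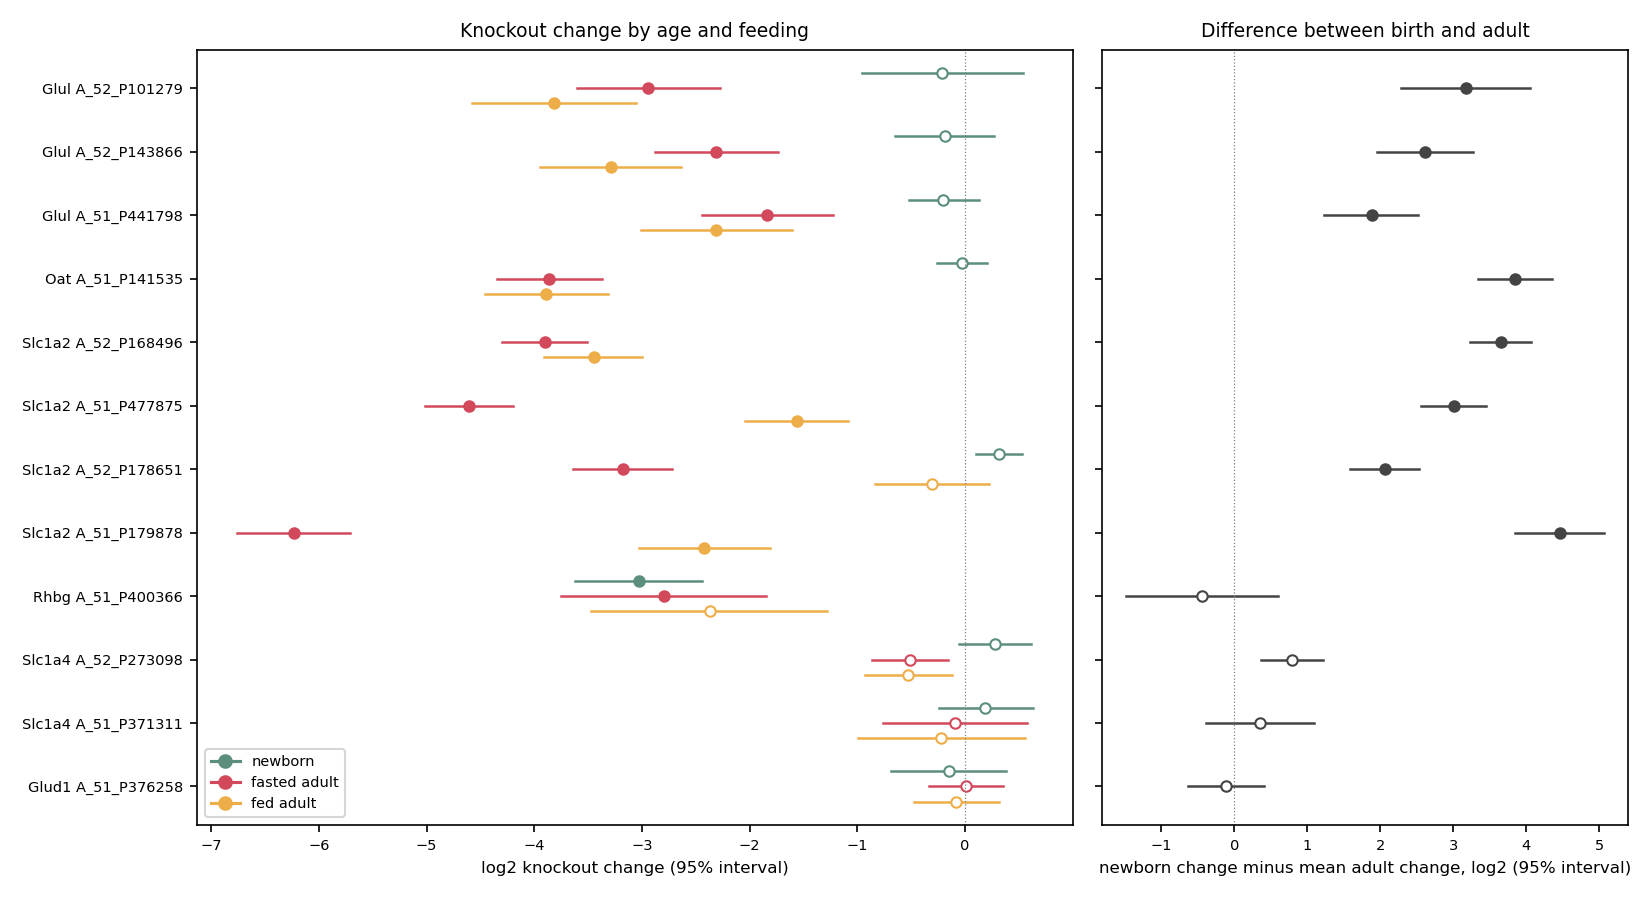
Left, the knockout change (log2, horizontal axis) with its 95% interval at each tested probe in newborns, fasted adults and fed adults; right, the newborn change minus the mean adult change. Filled points have an adjusted p below 0.05. Rhbg is the only probe with a filled newborn point, and its difference of -0.44 on the right spans 0, while the 8 filled differences run from 1.88 to 4.46.

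Newborn wild types and knockouts were hybridised on separate slides, so slide and genotype cannot be told apart at birth. With local backgrounds that the scanner software marked as outliers kept as measured, 0 newborn probes were called on the whole array (Rhbg -2.67, adjusted p = 1). Of the 6 genes' probes, 2 were then called in fasted adults, 2 in fed adults and 2 in the difference, which were A_52_P101279 of Glul and the Oat probe each time. Within slide 4 the 4 plus-strand Slc1a2 probes were the only calls among the probes of the 6 genes, while 6 probes were called on the whole array. A_52_P101279 of Glul had an adjusted p of 0.212 there and Oat 0.137. Within fed slides 5 and 6, of 3 arrays each, 0 probes of the 6 genes were called, with the changes given above.

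Fasting was next compared with feeding in the control adults, to see which of the genes moved with feeding alone. Here 5 probes were called higher and 1 lower in fasted controls, in a comparison where 37.9% of all probes were called, 22.2% higher and 15.7% lower. Slc1a2 was higher at all 4 tested probes, by 1.26, 3.08, 3.07 and 4.62 at A_52_P168496, A_51_P477875, A_52_P178651 and A_51_P179878 (adjusted p = 4.02e-04, 1.45e-06, 3.04e-06 and 7.48e-07). A_51_P477875 and A_52_P178651 were well above background on no fed array and entered the test through the fasted arrays alone. That entry favoured a higher value in fasted livers, so their direction is no separate support, and their sizes are not measured. The bound at A_52_P178651 was at least 2.39-fold. In the liver channel alone the changes at the 4 Slc1a2 probes were 1.46, 1.27, 1.54 and 2.39, all called. From the deposited processed signals, A_52_P168496 was 0.33 higher and not called (adjusted p = 0.207). Glud1 was lower by 0.71 (adjusted p = 0.00556) but only by 0.11 in the liver channel alone (adjusted p = 0.67). The Glul probes disagreed, with 0.79 at A_52_P143866 (adjusted p = 0.0424), -0.11 at A_51_P441798 and 0.30 at A_52_P101279 (adjusted p = 0.804 and 0.501). The first of these passed the threshold narrowly and failed in 9 of the 14 fits that left out 1 array. Oat changed by 0.28, Rhbg by 0.71 and the Slc1a4 probes by -0.06 and -0.27, none of them called by the ratio. In the liver channel alone Oat was called higher (1.79, adjusted p = 2.73e-04), as were both Slc1a4 probes (0.90 and 0.73), but not Rhbg (-0.70, adjusted p = 0.379). Glul was there called higher at A_52_P143866 (1.24, adjusted p = 0.00228) and lower at A_51_P441798 (-1.16, adjusted p = 8.58e-04). The reference channel also differed at Oat, by 0.92 (adjusted p = 7.21e-06). Fasted and fed arrays lie on different slides and differ in detection, so feeding cannot be told apart from slide here.

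The knockout change was also tested for a difference between fasted and fed adults. Only 3 of 25135 probes were called (0.0119%), and all 3 were Slc1a2 probes, A_51_P477875, A_52_P178651 and A_51_P179878. The fasted minus the fed knockout change was -3.04, -2.87 and -3.81 (adjusted p = 0.00144, 0.00533 and 0.00144). The first and second of them were above background on no fed array and the third on 2, so the fed change had little signal to fall from. At the brightest Slc1a2 probe the difference was -0.45 (adjusted p = 0.802; 95% interval -1.05 to 0.15). In the liver channel alone the 3 differences were -1.32, -1.62 and -1.78, with adjusted p of 0.529, 0.549 and 0.443. From the processed signals the difference was -1.05 at A_51_P477875 and -0.91 at A_51_P179878 (adjusted p = 0.781 and 0.795), while A_52_P178651 stayed called (-3.07, adjusted p = 0.0065). It was there called above 0 at A_52_P168496 (2.78, adjusted p = 0.0067) and at A_52_P143866 of Glul (2.90, adjusted p = 0.0282). Without fasted knockouts 2 and 3, A_52_P178651 was no longer called (-2.90, adjusted p = 0.066). The Glul probes had differences of 0.98, 0.47 and 0.88 and Oat of 0.03, with adjusted p from 0.739 to 0.991.

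Around these genes, 39 others that make, use or carry glutamine, glutamate and ammonia, such as glutaminases, aminotransferases and the Slc38a transporters, were examined as 1 list, with the brightest probe of each. In newborn knockouts 1 of 36 tested was higher and 0 lower. That was Pfas, a purine synthesis enzyme that takes nitrogen from glutamine (1.06 ± 0.15, SE, adjusted p = 0.0141). In fasted and fed knockouts 0 of 34 were called in either direction, and the list medians were 0.04 and 0.03. The difference between birth and adult was called for Pfas (0.90, adjusted p = 0.00795), for Ctps, which makes CTP with nitrogen from glutamine (0.73, adjusted p = 0.0432), and for Slc38a3, a glutamine transporter (-0.58, adjusted p = 0.0468). None of the 7 urea cycle genes was called in a knockout. In fed knockouts all 7 changes were above 0, with a median of 0.41. So were those of all 7 hepatocyte and all 9 Kupffer cell markers tested, with medians of 0.47 and 0.59. Cps1, which starts the cycle from free ammonia, differed between birth and adult by -0.77 (adjusted p = 0.0446). Its changes were -0.31 in newborn, -0.05 in fasted and 0.95 in fed knockouts (adjusted p = 0.3, 0.961 and 0.0723).

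In the fasting comparison of controls, 2 of 34 genes of this list were called higher and 12 lower, in a comparison where 37.9% of all probes were called. Those of smallest adjusted p were Aldh18a1, which makes the precursor of proline from glutamate (-3.67), Gmps (-0.94), Aldh4a1 (-0.71), Gpt (-0.61), Prodh (-0.92) and the liver glutaminase Gls2 (-0.78), with adjusted p from 3.81e-06 to 2.88e-04. Of the urea cycle genes, Ass1 and Arg1 were lower by 1.27 and 0.97 and Slc25a15, the mitochondrial ornithine carrier, was higher by 1.34 (adjusted p = 8.67e-06, 0.0218 and 0.00336).

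**Figure D4:**
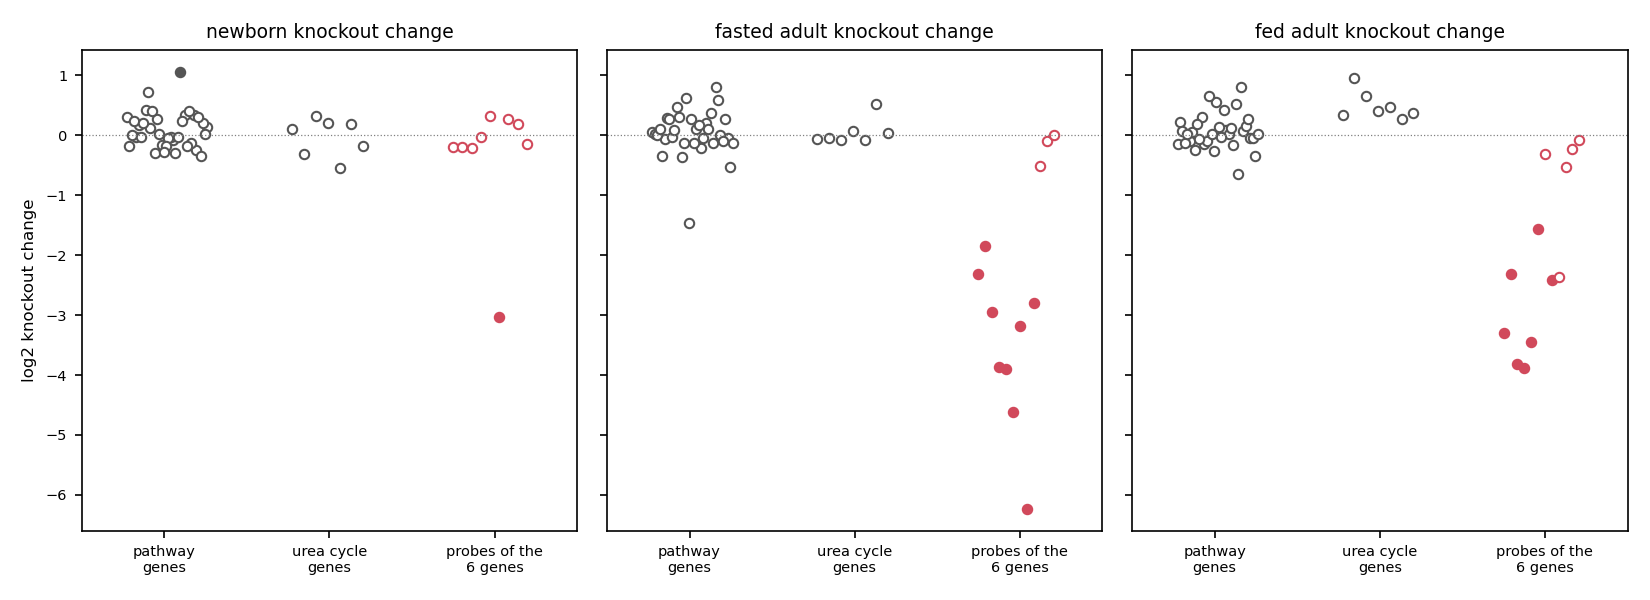
Knockout change (log2, vertical axis) of each tested gene of the glutamine, glutamate and ammonia list, of the urea cycle, and of each tested probe of the 6 genes (red), in newborns, fasted adults and fed adults. Filled points have an adjusted p below 0.05; Pfas at 1.06 is the only filled point outside the 6 genes.

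Other pericentral hepatocyte markers were read beside these genes. In fasted knockouts 5 of 19 were called lower, namely Lgr5 (-3.14), Tbx3 (-3.77), Sp5 (-4.68), Lhpp (-4.33) and Slc13a3 (-2.35), and 0 were called higher. In fed knockouts 2 were called lower, Sp5 (-2.58) and Lhpp (-4.33). In newborn knockouts 2 of 18 were called lower, Slco1b2 (-1.06) and Cyp2c37 (-1.63). Summed over the list, the signal (log2) was 19.37 to 19.73 in fasted controls and 17.81 to 18.99 in fasted knockouts, 19.74 to 19.92 and 19.14 to 19.24 in the fed groups, and 17.73 to 18.32 and 16.95 to 17.39 in the newborn groups. In whole liver RNA, fewer pericentral hepatocytes and less RNA per cell cannot be told apart. Among other cell types, summed Kupffer cell markers were 16.34 to 17.05 in newborn wild types and 15.56 to 16.22 in newborn knockouts, with 1 of 9 markers called lower, so they moved with genotype as Rhbg did. All 8 endothelial and all 7 stellate cell markers also had changes below 0 in newborn knockouts, with 0 called, and medians of -0.37 and -0.47. Bile duct markers summed to 11.60 to 11.90 in fasted controls and 11.95 to 13.82 in fasted knockouts, with 0 of 5 called (Sox9 1.77, adjusted p = 0.139). The part of these cells in the results was not tested.

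Genes whose ratio ran most like that of the brightest Glul probe over the 14 adult arrays were Slc16a11 (r = 0.984), Lhpp (0.966), Ces2b (0.941), Tnfrsf19 (0.939) and Tenm3 (0.934). Within the 6 genes, r with that probe was 0.97 for Oat, 0.96 for Slc1a2 A_52_P168496, 0.88 for Rhbg and -0.24 for Glud1. Over the 8 newborn arrays the genes most like Rhbg were Slc38a4 (0.990), Bmpr1a (0.989), Herc6 (0.989), Aqp9 (0.980) and Dnase2b (0.979), while r with Rhbg was 0.12 for the brightest Glul probe and 0.04 for Oat. These are descriptions over arrays that share slides and genotype groups. Aqp9, a glycerol and water channel, was chosen by its likeness in the newborn arrays, where it differed by -2.01. It was also called lower in fasted knockouts, which the choice did not use (-0.86, adjusted p = 0.0333), but not in fed knockouts (-0.63, adjusted p = 0.376). Bmpr1a, Herc6 and Dnase2b were called in neither adult setting. Slc38a4, a neutral amino acid transporter, chosen in the same way at probe A_52_P12403, differed by -0.86 at birth and by -0.02 and 0.68 in fasted and fed knockouts (adjusted p = 0.982 and 0.08). The brighter Slc38a4 probe A_52_P48569, which stood for it in the glutamine list, changed by -0.30 at birth and was not called (adjusted p = 0.359). All 5 genes most like Glul were lower in both adult settings, which their choice over arrays of both genotypes fixes, and their newborn changes ran from -0.52 to 0.68, none called.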

How the data were processed

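Liver RNA was labelled with Cy3 and reference RNA (Stratagene) with Cy5 on all 22 arrays, per the labels. Per the file headers, Agilent Feature Extraction 10.5.1.1 quantified the scans (the submitters' processing notes name 8.5.1.1) and gave median spot intensity values and background-subtracted processed intensity values. The log10 ratios the authors deposited matched those in the array files, with a largest difference of 0, so scale and direction are known. Their column median was 0 on newborn and fasted arrays and 0.0183 to 0.0666 on fed arrays.

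Ratios were recomputed from median intensities in R 4.3.3 with limma 3.58.1 (normexp with an offset of 50, loess within arrays), with local backgrounds marked as outliers replaced by the array median. The offset shrinks ratios of dim spots. Outlier spots were left out and spots of a probe averaged. Testing required a liver signal well above background on 4 or more of the newborn or 3 or more of the adult arrays, and used lmFit and eBayes (two-sided, Benjamini-Hochberg over all probes). Newborn, adult and all 22 arrays were fitted separately, with 6, 10 and 16 residual degrees of freedom, and the fit was tested on simulated data. Of 41174 probes, 32831 were named through RefSeq. Figures used matplotlib 3.10.9 with Python 3.11.15.

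All probes of the 6 genes are reported. From the gene lists, up to 6 called genes a comparison are named by smallest adjusted p, and the pericentral markers named are all those called. Genes and lists were chosen with earlier results of these data known. Same-numbered samples correlated at 0.496, 0.342, 0.394 and -0.252 in newborns, 0.006 to 0.091 in fasted and -0.116 to 0.146 in fed adults, so not every pair deviated together and numbers were not used as pairs. Alternatives were other backgrounds, scalings, filters, weights, slide blocks and left-out arrays.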

Additional observations from a re-analysis of the deposited data

Results flagged for a closer look

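The knockout change differed between birth and the adult, by the test of that difference, at 8 probes. The newborn minus adult difference was 2.61, 1.88 and 3.17 at Glul A_52_P143866, A_51_P441798 and A_52_P101279, and 3.84 at Oat. Newborn wild types started below adult controls at Glul A_51_P441798 and at Oat. At Slc1a2 the difference was 3.65, 3.01, 2.06 and 4.46 at A_52_P168496, A_51_P477875, A_52_P178651 and A_51_P179878. There newborn wild types were near background and the direction follows from the adult fall. The change differed between fasted and fed adults at 3 Slc1a2 probes, by -3.04 at A_51_P477875, -2.87 at A_52_P178651 and -3.81 at A_51_P179878. A_51_P477875 and A_52_P178651 were well above background on no fed array, so the fed change had little signal to fall from. In the liver channel alone none of the 3 was called (adjusted p = 0.529, 0.549 and 0.443).

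A sample far from the rest of its group was found in 3 of 51 groups of 4 that were checked, where chance gives about 1 in 20 groups. Newborn wild type 2 measured 0.62 at Glul A_51_P441798, where the other wild types measured 0.94 to 1.00. Fasted control 2 measured 3.15 at Slc1a2 A_52_P178651, where the others measured 3.68 to 3.74. Fasted knockout 1 measured -0.11 at Slc1a4 A_51_P371311, where the others measured -1.49 to -1.39.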

How the results depend on the processing

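Counts of called probes among the 6 genes were 1, 9, 7, 8, 6 and 3 for the newborn, fasted and fed knockout changes, the newborn minus adult difference, the fasting change and the interaction. With outlier local backgrounds kept they were 0, 2, 2, 2, 0 and 0. With 1 probe per gene they were 4, 3, 3, 2 and 0 from the fasted change on, since fewer probes were tested. With the liver channel alone, 2 were called in newborns and 0 in the interaction. Within single slides 3 or 4 arrays remain. On slide 3 all fasted calls held except that of Glul A_51_P441798 (adjusted p = 0.206). Of the 6 genes' probes, 4 were called on slide 4, 0 on slide 5 and 0 on slide 6.

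Leaving out 1 array gave 1 in newborns, 9 fasted, 7 to 8 fed, 8 to 9 for the difference, 5 to 7 for fasting and 3 for the interaction. Over all probes, calls ranged from 0 to 1010 in newborns, 6 to 229 fasted, 0 to 93 fed, 9 to 896 for the difference, 5507 to 13899 for fasting and 0 to 13 for the interaction across the other settings. The sign turned at 5 places where 1 of the 2 settings made a call and the other did not. With backgrounds kept, the fasting change was -0.46 at Glul A_52_P143866 and -0.33 at Slc1a2 A_52_P168496. In the liver channel alone it was 0.90 and 0.73 at the Slc1a4 probes A_52_P273098 and A_51_P371311. From processed signals the interaction at Slc1a2 A_52_P168496 was 2.78 (adjusted p = 0.0067). The cause was not tested. Another 65 sign changes concerned values called in neither setting.

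From processed signals the fed Rhbg fall was called (-4.91, adjusted p = 3.42e-04). A fit with replicate number as a block, although not every same-numbered pair deviated together (correlations of -0.252 to 0.496), left the fasted Rhbg change at -2.80 with an adjusted p of 0.0598 and the fasting changes of Glul A_52_P143866 at 0.76 (adjusted p = 0.102) and Glud1 at -0.64 (adjusted p = 0.0628). It ended no other call.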
